A study of Homo sapiens with 18 samples.

Results

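AMO1 is an established human multiple myeloma line, that is, a cultured line of cancerous plasma cells, and it was treated for 6 h with 1000 nM YKL-5-124, a covalent inhibitor of the kinase CDK7, or with its solvent DMSO. The changes compare 6 of the 18 libraries of the series, chosen by their labels: 3 libraries of AMO1 cells given 1000 nM and 3 of AMO1 cells given DMSO. The spread behind each adjusted p was estimated over all 18 libraries. The other 12 libraries are AMO1 cells given 100 nM (3 libraries) and cells labelled XG1, a second myeloma line, given 100 nM, 1000 nM or DMSO (3 libraries each). All groups were cultured in serum-supplemented RPMI medium in multiwell plates and collected at the same time, and none carries an engineered allele according to the labels. The series title calls both lines resistant, and the labels do not say to what. RNA was read as short tags at the 3′ ends of transcripts (QuantSeq), and the deposited value of each gene is an FPKM, the authors' normalised abundance. The labels do not say whether the replicates were separate cultures, so a p-value here speaks of the variation among 3 libraries a group, part or all of which may arise in library making or sequencing.

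CDK7 works with cyclin H (CCNH) and MAT1 (MNAT1) as the CDK-activating kinase, which phosphorylates the cell cycle kinases CDK1, CDK2, CDK4 and CDK6. The same trio is the kinase module of the general transcription factor TFIIH, where it phosphorylates the tail of RNA polymerase II as transcription starts. Myeloma cells depend on plasma cell transcription factors such as IRF4 and commonly on deregulated MYC, whose transcripts are short-lived.

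The AMO1 label fitted its markers: 9 of 10 plasma cell markers stood at 10 FPKM or more in every library of both groups. Their summed level was 4808 to 5454 FPKM in the 1000 nM libraries, against 5215 to 7249 FPKM in the DMSO libraries. Of 14 T cell and myeloid markers, 12 stayed under 1 FPKM in every library of both groups, with sums of 3.40 to 4.77 FPKM at 1000 nM, against 4.32 to 5.84 FPKM in DMSO. The 13 erythroid markers summed to 3.82 to 14.5 FPKM at 1000 nM, against 9.69 to 14.5 FPKM in DMSO. The 13 stromal and epithelial markers summed to 3.86 to 5.54 FPKM at 1000 nM, against 4.80 to 7.42 FPKM in DMSO. The libraries were not centred alike: the median gene stood at 2.47, 2.48 and 2.62 on the log2(FPKM + 1) scale in the 1000 nM libraries, against 2.85, 2.95 and 2.64 in the DMSO libraries. DMSO replicate 3 stood apart from the other DMSO libraries, with a median ribosomal protein transcript at 11.2 on that scale, against 11.7 in DMSO replicates 1 and 2. The 44 spike-in RNAs used as a check had a median log2 deviation of at most 0.0729 from their means in any of the 6 libraries. Many of the results are therefore also given after every library was centred on its own median, which raises every log2 change by 0.29. In bulk RNA such as this, fewer cells of a type and less RNA per cell cannot be told apart.

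In AMO1 cells given 1000 nM, far more genes were lower than higher. Of 12204 genes tested, 2091 (17.1%) differed from DMSO at an adjusted p under 0.05. Among them 1874 (15.4%) were lower and 217 (1.78%) were higher. Every adjusted p here comes from limma on log2(FPKM + 1) with Benjamini-Hochberg adjustment over all genes tested, and log2 changes are given ± SE on that scale. At least 2-fold changes on the log2(FPKM + 1) scale were called lower for 336 genes and higher for 53. The 3 and 3 libraries did not overlap for 1776 of the genes called lower and 206 of those called higher. Over all genes tested, 31.2% had every 1000 nM library below every DMSO library and 4.44% had every 1000 nM library above. Scaling on the spike-ins left the excess of lower genes in place, with 1884 lower and 211 higher. The spike-ins deviated by at most 0.0729 in these libraries, so that scaling could change little. The excess moved with centring, since the median log2 change over all genes was -0.18 before centring and 0.11 after it. After centring, 815 genes (6.68%) were lower and 1012 (8.29%) were higher. After quantile normalization, which gives all libraries 1 distribution, 1011 genes (8.28%) were lower and 861 (7.06%) were higher. The 815 genes lower after centring were all lower before it too, and the 217 genes higher before centring were all higher after it. Thus 1059 genes were lower only before centring and 795 higher only after it. Without DMSO replicate 3, 2894 genes were lower and 137 higher, 3031 in all. Leaving out 1000 nM replicate 1 or 2, or DMSO replicate 1 or 2, left between 1187 and 1248 genes called.

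**Figure D1:**
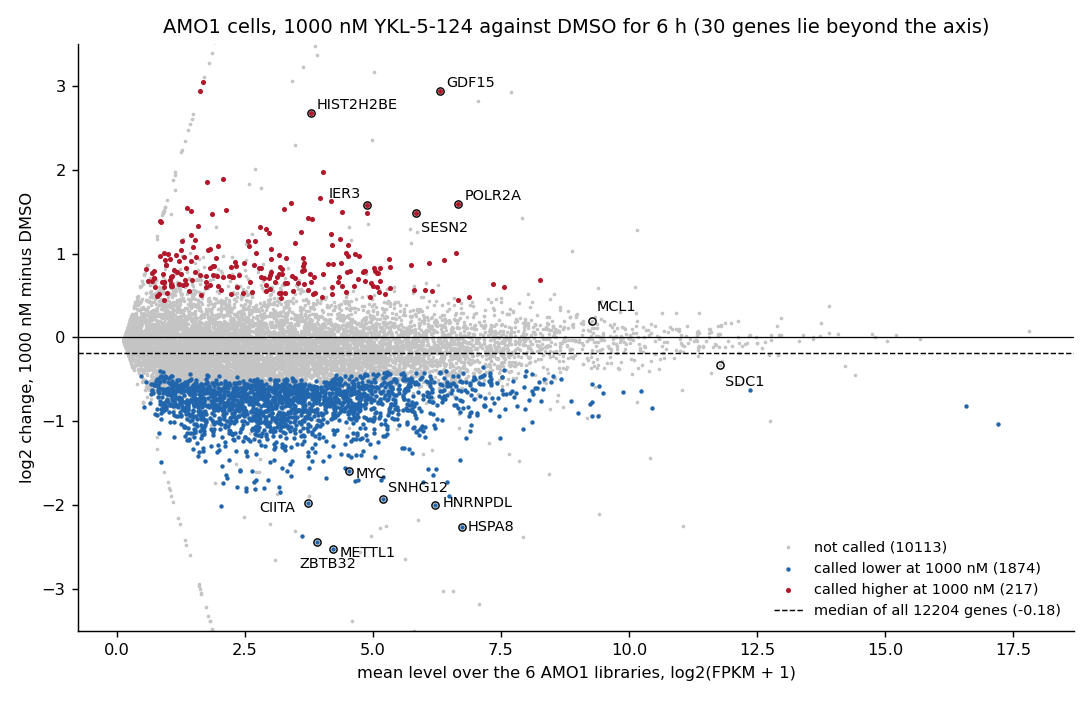
Each point is 1 of the 12204 genes tested, with its mean level over the 6 libraries across the page and its log2(FPKM + 1) change, 1000 nM minus DMSO, up the page. Red points are genes called higher and blue points genes called lower. The called genes lie mostly below 0 (1874 of 2091), the dashed line marks the median change of all genes, -0.18, and 30 genes lie beyond the axis limit of 3.5.

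The steepest falls included a tRNA methyltransferase, a lymphocyte repressor, a chaperone and a splicing protein. They were ranked among called genes of at least 5 FPKM in 1 group whose 3 and 3 libraries did not overlap. Non-overlap of the steepest falls and rises was thus set in advance. METTL1, the methyltransferase that adds 7-methylguanosine to tRNA, was measured at 7.36, 6.23 and 6.90 FPKM in the 1000 nM libraries, against 49.3, 55.7 and 30.5 FPKM in the DMSO libraries. The METTL1 log2 change was -2.52 ± 0.19 (adjusted p = 8.06e-08), and -2.23 after centring. ZBTB32, a zinc finger repressor of lymphocytes, was measured at 5.48, 5.95 and 4.91 FPKM in the 1000 nM libraries, against 37.4, 36.8 and 28.7 FPKM in the DMSO libraries. The ZBTB32 log2 change was -2.45 ± 0.17 (adjusted p = 2.38e-08), and -2.15 after centring. The 3 treated values of each gene sat close together, far below the DMSO values. TEX19, a gene known from germ cells, was measured at 4.15, 4.69 and 4.37 FPKM in the 1000 nM libraries, against 29.4, 32.7 and 20.1 FPKM in the DMSO libraries. The TEX19 log2 change was -2.37 ± 0.20 (adjusted p = 3.92e-07), and -2.07 after centring. HSPA8, the constitutive cytosolic HSP70 chaperone, was measured at 34.1, 49.6 and 63.1 FPKM in the 1000 nM libraries, against 233, 199 and 267 FPKM in the DMSO libraries. The HSPA8 log2 change was -2.26 ± 0.22 (adjusted p = 2.87e-06), and -1.97 after centring. HSPA8 has processed pseudogene copies that reads could be shared with. HNRNPDL, an RNA-binding protein of splicing, was measured at 34.6, 36.9 and 36.98 FPKM in the 1000 nM libraries, against 173, 166 and 112 FPKM in the DMSO libraries. The HNRNPDL log2 change was -2.002 ± 0.15 (adjusted p = 7.44e-08), and -1.71 after centring. In TEX19, HSPA8 and HNRNPDL the groups were separated by a wide gap. SH3BP5, a regulator of Rab GTPases, averaged 1.03 ± 0.194 FPKM at 1000 nM, against 7.23 ± 1.36 FPKM in DMSO (SD, n = 3 each, as for every mean here). CIITA, described below, and the small nucleolar RNA host SNHG12 were also among the 15 steepest falls. A further 6 genes had log2 changes of -1.84 in CUTC, -1.81 in TNFRSF8 or CD30, -1.80 in DDN and -1.79 in SPTBN1, a beta spectrin. They were -1.79 in PHOSPHO2 and -1.78 in EFNA4, an ephrin, and the adjusted p of all 6 was at most 8.16e-04.

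The steepest rises, ranked under the same conditions, were led by a stress cytokine and a histone gene. GDF15, a secreted stress cytokine and p53 target, was measured at 202, 231 and 225 FPKM in the 1000 nM libraries, against 36.7, 32.2 and 17.7 FPKM in the DMSO libraries. The GDF15 log2 change was 2.94 ± 0.20 (adjusted p = 2.38e-08), and 3.23 after centring. HIST2H2BE, a histone H2B gene whose messenger can be polyadenylated, was measured at 28.3, 34.5 and 39.7 FPKM in the 1000 nM libraries, against 5.07, 6.24 and 2.69 FPKM in the DMSO libraries. The HIST2H2BE log2 change was 2.67 ± 0.21 (adjusted p = 8.83e-08), and 2.97 after centring. Reads of near-identical histone genes are uncertain in their placement. The lowest 1000 nM value was more than every DMSO value by a wide margin in both genes, and in both DMSO replicate 3 was the lowest of all. ZNF580, a zinc finger protein, was measured at 28.8, 31.8 and 33.4 FPKM in the 1000 nM libraries, against 9.02, 7.07 and 5.83 FPKM in the DMSO libraries. The ZNF580 log2 change was 1.98 ± 0.23 (adjusted p = 1.95e-05), and 2.27 after centring. SMIM14, a small membrane protein, was measured at 4.12, 6.11 and 6.24 FPKM in the 1000 nM libraries, against 1.69, 0.464 and 0.440 FPKM in the DMSO libraries. The SMIM14 log2 change was 1.85 ± 0.23 (adjusted p = 3.42e-05), and 2.14 after centring. TMEM129, an ubiquitin ligase of the ER membrane, was measured at 29.3, 33.1 and 30.4 FPKM in the 1000 nM libraries, against 10.9, 12.5 and 5.85 FPKM in the DMSO libraries. The TMEM129 log2 change was 1.63 ± 0.20 (adjusted p = 2.16e-05), and 1.92 after centring. The DMSO libraries of SMIM14 spread more than its treated ones on a relative scale. POLR2A, which encodes the catalytic subunit of RNA polymerase II, was also among the 15 and is described below with its complex. UCN, which encodes the peptide urocortin, averaged 18.5 ± 9.10 FPKM at 1000 nM, against 5.25 ± 2.18 FPKM in DMSO. TNFRSF10D, a decoy receptor for TRAIL, averaged 15.3 ± 0.302 FPKM at 1000 nM, against 4.75 ± 1.24 FPKM in DMSO. PRDM2, a methyltransferase-family zinc finger protein, averaged 22.1 ± 2.68 FPKM at 1000 nM, against 7.65 ± 0.955 FPKM in DMSO. IER3 and SESN2, given below with their lists, were of this group too. INAFM1 averaged 10.5 ± 4.79 FPKM at 1000 nM, against 3.48 ± 1.13 FPKM in DMSO. HES6, a helix-loop-helix factor, averaged 17.9 ± 3.65 FPKM at 1000 nM, against 6.94 ± 1.87 FPKM in DMSO. CEACAM21, of the carcinoembryonic antigen family, averaged 11.3 ± 3.23 FPKM at 1000 nM, against 4.29 ± 1.73 FPKM in DMSO. ZFYVE1, a FYVE finger protein, averaged 27.1 ± 4.45 FPKM at 1000 nM, against 12.01 ± 5.95 FPKM in DMSO. Of all 30 steepest changes, the call of ZFYVE1 alone was lost when single libraries were left out, without 1000 nM replicate 3 or DMSO replicate 3 (adjusted p up to 0.0659). Here and below, where several libraries are named after "without", each was left out alone.

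**Figure D2:**
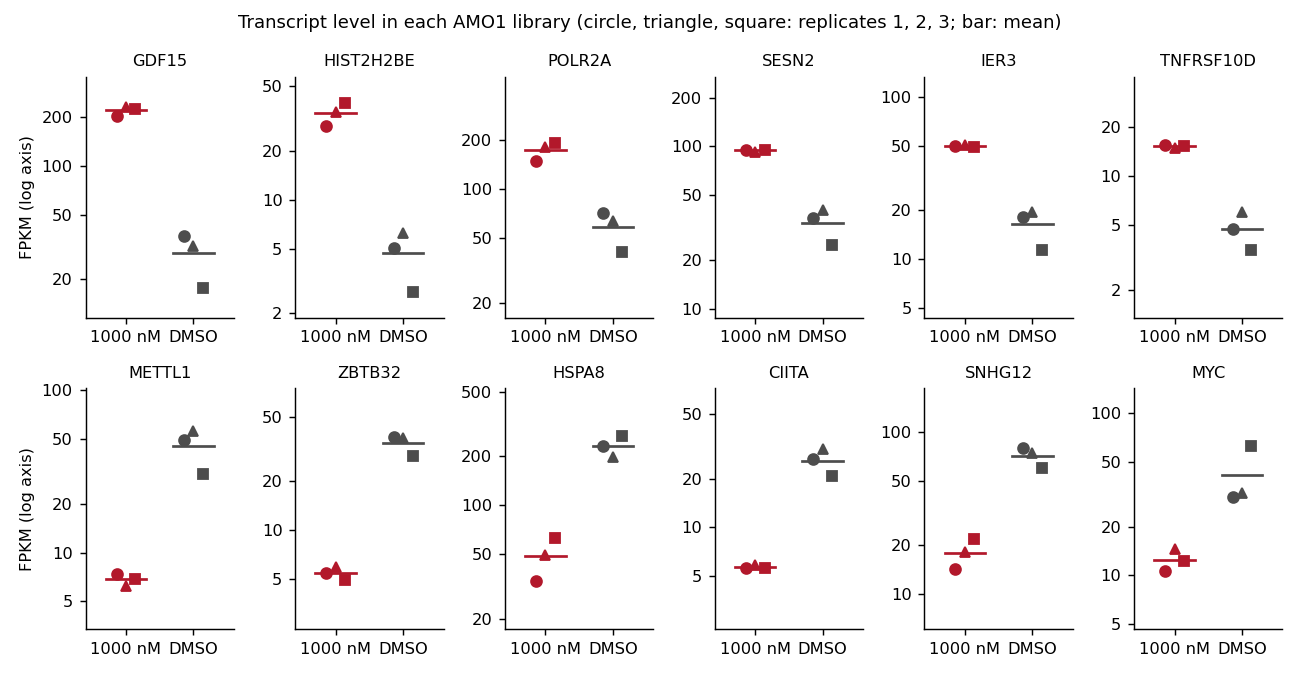
Each point is the FPKM of 1 library on a log axis for genes with the steepest changes, and for MYC. The 3 libraries at 1000 nM stand left of the 3 DMSO libraries in each panel, with bars at the group means. In METTL1 the 1000 nM libraries sit between 6.23 and 7.36 FPKM, below all DMSO libraries (30.5 to 55.7 FPKM), and in GDF15 they sit between 202 and 231 FPKM, above all DMSO libraries (17.7 to 36.7 FPKM).

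The promoters of 5 genes are shown as examples: 2 of the steepest rises (GDF15 and HIST2H2BE), 2 of the steepest falls (HSPA8 and ZBTB32) and UNG. UNG is a replication-linked gene with an E2F motif and was not among the steepest falls. The promoters are RefSeq sequences on GRCh38.p14, a newer build than the hg19 of the deposited files. They run from 250 bases before to 50 bases after the annotated start and are read 5′ to 3′ on the gene's strand. Capitals mark the motifs, each searched on both strands. The NF-Y motif was CCAAT. The TATA box was searched as TATAAA. The E-box was searched as CACGTG. The E2F motif was either TTCGCGC or the variant TTGGCGC. The GDF15 window lies on the plus strand at chr19:18385908-18386207. The HIST2H2BE window lies on the minus strand at chr1:149886633-149886932. The HSPA8 window lies on the minus strand at chr11:123062087-123062386. The ZBTB32 window lies on the plus strand at chr19:35704308-35704607. The UNG window lies on the plus strand at chr12:109097347-109097646.
GDF15: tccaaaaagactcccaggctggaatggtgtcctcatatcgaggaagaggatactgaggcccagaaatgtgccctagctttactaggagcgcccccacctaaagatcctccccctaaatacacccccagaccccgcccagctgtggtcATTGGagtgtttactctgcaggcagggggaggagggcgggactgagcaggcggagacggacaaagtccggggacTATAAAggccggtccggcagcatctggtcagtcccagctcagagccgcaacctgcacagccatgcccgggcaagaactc
HIST2H2BE: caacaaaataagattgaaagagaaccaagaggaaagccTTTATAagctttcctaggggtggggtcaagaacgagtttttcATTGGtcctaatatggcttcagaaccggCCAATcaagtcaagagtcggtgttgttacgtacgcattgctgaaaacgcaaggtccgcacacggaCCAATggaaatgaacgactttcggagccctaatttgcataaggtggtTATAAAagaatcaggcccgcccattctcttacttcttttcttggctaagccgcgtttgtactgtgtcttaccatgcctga
HSPA8: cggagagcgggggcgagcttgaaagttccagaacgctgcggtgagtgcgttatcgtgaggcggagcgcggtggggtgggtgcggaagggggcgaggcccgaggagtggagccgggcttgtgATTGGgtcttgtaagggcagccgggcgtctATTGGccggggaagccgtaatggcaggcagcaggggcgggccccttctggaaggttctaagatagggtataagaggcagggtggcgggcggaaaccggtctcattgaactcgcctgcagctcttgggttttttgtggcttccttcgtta
ZBTB32: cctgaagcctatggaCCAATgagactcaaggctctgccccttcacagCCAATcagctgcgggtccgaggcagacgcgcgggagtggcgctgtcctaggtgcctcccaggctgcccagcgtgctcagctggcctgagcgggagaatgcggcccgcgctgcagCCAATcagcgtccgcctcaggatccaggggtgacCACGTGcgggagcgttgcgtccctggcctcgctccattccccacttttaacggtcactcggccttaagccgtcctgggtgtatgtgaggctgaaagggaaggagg
UNG: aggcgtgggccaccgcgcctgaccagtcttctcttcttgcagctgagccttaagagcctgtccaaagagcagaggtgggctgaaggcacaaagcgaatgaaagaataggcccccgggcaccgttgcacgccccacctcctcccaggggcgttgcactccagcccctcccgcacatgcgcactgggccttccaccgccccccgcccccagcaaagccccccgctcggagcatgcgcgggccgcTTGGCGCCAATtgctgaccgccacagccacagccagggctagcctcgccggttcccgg
GDF15 held 1 NF-Y motif and 1 TATA box, HIST2H2BE 3 NF-Y motifs and 2 TATA boxes, HSPA8 2 NF-Y motifs, and ZBTB32 3 NF-Y motifs and 1 E-box. In UNG the E2F motif lies on both strands and overlaps the single NF-Y motif. A match describes letters in this window only. METTL1, CIITA, TEX19 and TTK had no entry in the promoter table, so their windows could not be shown.

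The table held a promoter for 9608 of the 12204 genes tested, chromosome 8 left out. The NF-Y motif lay in 47.6% of the 166 promoters of genes called higher, 36.2% of the 1545 called lower and 37.4% of all tested, against 35.7% of the 27305 promoters in the table. A TATA box lay in 9.64% of the promoters of genes called higher, 5.76% of those called lower and 5.62% of all tested, against 12.0% of the table. The E2F motif lay in 9.04% of promoters of genes called higher, 9.84% of those called lower and 8.86% of all tested, against 5.18% of the table. The promoters of DNA replication genes held it in 51.7% of 29. The cell cycle homology region TTTGAA lay in 62.5% of 24 promoters of mitosis genes, against 9.74% of all tested and 15.4% of the table. The E-box CACGTG lay in 40.9% of 22 promoters of ribosome assembly genes, against 10.5% of all tested and 7.43% of the table. These shares are descriptions with no test.

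The targeted kinase was measured at lower levels with the drug, and RNA polymerase II's largest subunit at higher ones. CDK7 was measured at 6.44, 9.31 and 6.42 FPKM in the 1000 nM libraries, against 9.36, 12.03 and 14.7 FPKM in the DMSO libraries. The CDK7 log2 change was -0.63 ± 0.20 (adjusted p = 0.0335), but -0.34 after centring (adjusted p = 0.247). The groups did not overlap, although 9.31 and 9.36 FPKM, the highest treated and lowest DMSO value, nearly met, and the call was lost without 1000 nM replicates 1 and 3 or DMSO replicates 2 and 3 (adjusted p up to 0.134). Its partners CCNH (log2 change -0.37 ± 0.28, adjusted p = 0.432, and -0.07 after centring) and MNAT1 (log2 change -0.17 ± 0.26, adjusted p = 0.733, and 0.12 after centring) were not called. CDK7 was the only one of 10 tested TFIIH members called in either direction. Over all genes 15.4% were called lower and 1.78% higher, the background for the count of each list. That background includes genes near the floor in AMO1 that were tested because another group averaged 1 FPKM. The erythroid marker ALAS2, with a mean of 0.139 on the log2(FPKM + 1) scale, is an example. Such genes can hardly be called, so the background may be too low for lists expressed in AMO1, by an amount not computed. The list's median was -0.24, or 0.05 after centring, against -0.18 and 0.11 over all genes. POLR2A was measured at 149.8, 183 and 193 FPKM in the 1000 nM libraries, against 71.5, 63.99 and 41.1 FPKM in the DMSO libraries, with every treated library far above the highest DMSO library. The POLR2A log2 change was 1.59 ± 0.18 (adjusted p = 8.58e-06), and 1.88 after centring. Of 12 tested subunits of the polymerase, POLR2A rose and 2 fell, with a median of -0.14, or 0.15 after centring. POLR2H, a subunit shared by all 3 nuclear RNA polymerases, fell (log2 change -0.70 ± 0.12, adjusted p = 5.45e-04, and -0.41 after centring). POLR2B, the second largest subunit, fell as well (log2 change -0.59 ± 0.17, adjusted p = 0.0186, against -0.30 and adjusted p = 0.167 after centring), a call lost without 1000 nM replicate 1 or DMSO replicates 1 and 2 (adjusted p up to 0.115).

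Other kinases of transcription moved in different directions. Of 18 tested transcription kinases, cyclins and regulators of P-TEFb (the CDK9 complex that releases paused polymerase), 2 rose and 2 fell. Their median was 0.24, or 0.53 after centring, and after centring 7 were called higher and 2 lower. CDK12, which phosphorylates the elongating polymerase, was measured at 3.11, 2.78 and 3.54 FPKM in the 1000 nM libraries, against 5.86, 7.10 and 7.23 FPKM in the DMSO libraries. The CDK12 log2 change was -0.90 ± 0.17 (adjusted p = 0.00122), and -0.60 after centring. LARP7, which holds P-TEFb in its inactive 7SK particle, averaged 10.7 ± 1.34 FPKM at 1000 nM, against 21.2 ± 5.63 FPKM in DMSO. The LARP7 log2 change was -0.90 ± 0.22 (adjusted p = 0.00659), and -0.61 after centring. Both genes' treated libraries lay below all DMSO libraries, and the call of LARP7 was lost without DMSO replicate 2 (adjusted p = 0.0544). CCNL2, a cyclin of splicing-linked kinases, was measured at 23.1, 23.6 and 26.5 FPKM in the 1000 nM libraries, against 14.03, 13.6 and 10.9 FPKM in the DMSO libraries. The CCNL2 log2 change was 0.88 ± 0.16 (adjusted p = 8.90e-04), and 1.17 after centring. Its relative CCNL1 averaged 25.8 ± 0.743 FPKM at 1000 nM, against 17.5 ± 1.95 FPKM in DMSO. The CCNL1 log2 change was 0.54 ± 0.17 (adjusted p = 0.0336), and 0.84 after centring. The call of CCNL1 was lost without 1000 nM replicates 1 to 3 or DMSO replicates 2 and 3 (adjusted p up to 0.110). CDK9 (3.98 ± 0.532 FPKM at 1000 nM, against 3.04 ± 0.990 FPKM in DMSO) and the P-TEFb inhibitor HEXIM1 (8.76 ± 0.506 FPKM at 1000 nM, against 7.84 ± 0.540 FPKM in DMSO) were not called (adjusted p = 0.537 and 0.752).

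MYC, the growth-driving transcription factor, was measured at 10.6, 14.5 and 12.3 FPKM in the 1000 nM libraries, against 30.4, 32.01 and 62.4 FPKM in the DMSO libraries. The MYC log2 change was -1.59 ± 0.29 (adjusted p = 0.00124), and -1.30 after centring. DMSO replicate 3 was the highest library by far, and all treated libraries lay below the lowest DMSO library. The call held without any single library, with an adjusted p of up to 0.00981. Of 10 tested members of the MYC network, 2 rose and 3 fell (median -0.28, or 0.02 after centring). MGA, a repressor that binds MYC sites, fell with MYC (log2 change -0.72 ± 0.16, adjusted p = 0.00388, and -0.43 after centring). MXI1, a partner of MAX, fell (log2 change -0.56 ± 0.19, adjusted p = 0.0451, against -0.27 and adjusted p = 0.227 after centring). Its call was lost without 1000 nM replicates 1 to 3 or DMSO replicates 1 to 3 (adjusted p up to 0.134). The relatives MXD1 (log2 change 0.73 ± 0.21, adjusted p = 0.0223, and 1.03 after centring) and MXD3 (log2 change 0.73 ± 0.24, adjusted p = 0.0441, and 1.02 after centring) rose. The call of MXD1 was lost without 1000 nM replicates 2 and 3 or DMSO replicate 3 (adjusted p up to 0.0991). That of MXD3 was lost without 1000 nM replicates 1 and 3 or DMSO replicates 1 to 3 (adjusted p up to 0.151).

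Of 27 tested ribosome assembly genes, which MYC is known to drive, 18 (66.7%) were lower, against 15.4% of all genes, and none higher, with a median of -0.72, or -0.42 after centring. After centring 11 remained lower, and 11 were lower without DMSO replicate 2, against 23 without DMSO replicate 3. TAF1D, a subunit of the RNA polymerase I selectivity factor, was measured at 12.7, 12.4 and 10.3 FPKM in the 1000 nM libraries, against 35.5, 39.8 and 34.8 FPKM in the DMSO libraries. The TAF1D log2 change was -1.56 ± 0.16 (adjusted p = 3.69e-06), and -1.27 after centring. PPAN, a large-subunit assembly factor, was measured at 15.3, 16.4 and 17.3 FPKM in the 1000 nM libraries, against 31.8, 42.6 and 39.99 FPKM in the DMSO libraries. The PPAN log2 change was -1.17 ± 0.15 (adjusted p = 5.32e-05), and -0.87 after centring. POLR1B, the second largest subunit of RNA polymerase I, averaged 3.82 ± 0.839 FPKM at 1000 nM, against 9.69 ± 2.14 FPKM in DMSO. The POLR1B log2 change was -1.15 ± 0.21 (adjusted p = 8.91e-04), and -0.85 after centring. NOP16, a nucleolar protein, averaged 80.5 ± 12.2 FPKM at 1000 nM, against 177 ± 35.9 FPKM in DMSO. The NOP16 log2 change was -1.12 ± 0.18 (adjusted p = 4.06e-04), and -0.83 after centring. The groups were apart in all 4 genes. The 40 tested cytosolic ribosomal protein genes held no called member in either direction and 0 at an unadjusted p under 0.05 by limma (median -0.04, or 0.25 after centring). Of these genes 6 were lower without DMSO replicate 3. The 34 nuclear-encoded respiratory chain subunits likewise had no called member and 0 at an unadjusted p under 0.05 (median -0.01, or 0.28 after centring), and 2 were higher after centring.

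Genes of the cell cycle were mostly lower or not called, and in the 6 lists that follow none was higher before centring. Of 12 tested E2F factors and RB family members 4 fell (median -0.36, or -0.06 after centring). The count was 1 without 1000 nM replicates 1 and 2 or DMSO replicates 1 and 2 and 2 without 1000 nM replicate 3. E2F6, a repressive member, was measured at 3.04, 3.003 and 4.39 FPKM in the 1000 nM libraries, against 11.3, 10.8 and 5.73 FPKM in the DMSO libraries. The E2F6 log2 change was -1.16 ± 0.25 (adjusted p = 0.00328), and -0.87 after centring. Its groups did not overlap. E2F4, a repressive partner of RB relatives, fell (log2 change -0.75 ± 0.21, adjusted p = 0.0194, and -0.46 after centring). The E2F4 call was lost without 1000 nM replicates 1 and 2 or DMSO replicates 1 and 2 (adjusted p up to 0.111). E2F8, an atypical repressor, fell (log2 change -0.76 ± 0.26, adjusted p = 0.0460, against -0.47 and adjusted p = 0.144 after centring). The E2F8 call was lost without 1000 nM replicates 1 to 3 or DMSO replicates 1 to 3 (adjusted p up to 0.140). E2F2, an activator, fell (log2 change -0.57 ± 0.19, adjusted p = 0.0434, against -0.27 and adjusted p = 0.236 after centring). The E2F2 call was lost without 1000 nM replicates 1 to 3 or DMSO replicates 1 and 2 (adjusted p up to 0.210). E2F1, the activator of S phase genes, averaged 18.01 ± 2.28 FPKM at 1000 nM, against 22.5 ± 8.58 FPKM in DMSO and was not called (adjusted p = 0.584). Of 15 tested G1 cyclins, kinases and inhibitors 4 fell, with a median of -0.28, or 0.02 after centring. The count was 0 without DMSO replicates 1 and 2, 1 without 1000 nM replicates 1 and 2 and 2 without 1000 nM replicate 3. The D-type cyclin CCND1 fell (log2 change -0.81 ± 0.20, adjusted p = 0.00931, and -0.52 after centring), a call lost without DMSO replicates 1 and 2 (adjusted p up to 0.0628). CDC25A, a phosphatase that activates CDKs, fell (log2 change -0.59 ± 0.19, adjusted p = 0.0353, against -0.29 and adjusted p = 0.214 after centring). The CDC25A call was lost without 1000 nM replicates 1 and 2 or DMSO replicates 1 and 2 (adjusted p up to 0.185). CDK6, a partner of D-type cyclins, fell (log2 change -0.55 ± 0.18, adjusted p = 0.0365, against -0.25 and adjusted p = 0.163 after centring). The CDK6 call was lost without 1000 nM replicates 1 to 3 or DMSO replicates 1 and 2 (adjusted p up to 0.147). CDK4, the other partner, fell (log2 change -0.41 ± 0.14, adjusted p = 0.0497, against -0.11 and adjusted p = 0.565 after centring). The CDK4 call was lost without 1000 nM replicates 1 to 3 or DMSO replicates 1 and 2 (adjusted p up to 0.211). CCND2, another D-type cyclin, averaged 52.6 ± 9.99 FPKM at 1000 nM, against 69.2 ± 8.04 FPKM in DMSO and was not called (adjusted p = 0.139).

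DNA replication genes fell in number: 14 of 32 tested were lower and none higher (median -0.51, or -0.22 after centring), against a background of 15.4% of all genes called lower. After centring 7 were lower, and the count was 8 without 1000 nM replicate 1 and 9 without DMSO replicates 1 and 2. GINS3, a subunit of the replicative helicase's GINS complex, was measured at 2.48, 4.46 and 5.95 FPKM in the 1000 nM libraries, against 15.7, 15.96 and 8.67 FPKM in the DMSO libraries. The GINS3 log2 change was -1.46 ± 0.26 (adjusted p = 8.44e-04), and -1.16 after centring. UNG, which removes uracil from DNA and whose promoter is printed above, was measured at 10.3, 9.63 and 9.61 FPKM in the 1000 nM libraries, against 24.7, 21.9 and 18.6 FPKM in the DMSO libraries. The UNG log2 change was -1.06 ± 0.15 (adjusted p = 9.02e-05), and -0.77 after centring. The treated libraries of both lay below all DMSO libraries. RFC3, a clamp loader subunit, averaged 12.4 ± 0.996 FPKM at 1000 nM, against 25.3 ± 4.68 FPKM in DMSO. The RFC3 log2 change was -0.96 ± 0.19 (adjusted p = 0.00219), and -0.67 after centring. GINS1 averaged 3.02 ± 0.842 FPKM at 1000 nM, against 6.56 ± 1.36 FPKM in DMSO. The GINS1 log2 change was -0.91 ± 0.20 (adjusted p = 0.00418), and -0.62 after centring. PCNA, which tethers polymerases to DNA, was measured at 75.8, 77.9 and 68.997 FPKM in the 1000 nM libraries, against 118, 123 and 165 FPKM in the DMSO libraries. The PCNA log2 change was -0.84 ± 0.20 (adjusted p = 0.00630), but -0.55 after centring (adjusted p = 0.0632).

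Of 18 tested enzymes of nucleotide synthesis 6 fell (median -0.41, or -0.11 after centring), 4 after centring and 10 without DMSO replicate 3. CAD, the first enzyme of pyrimidine synthesis, was measured at 9.91, 8.76 and 9.55 FPKM in the 1000 nM libraries, against 21.9, 21.6 and 17.9 FPKM in the DMSO libraries. The CAD log2 change was -1.04 ± 0.15 (adjusted p = 1.37e-04), and -0.75 after centring. CTPS1, which makes CTP, was measured at 16.7, 17.3 and 21.8 FPKM in the 1000 nM libraries, against 45.5, 49.2 and 25.8 FPKM in the DMSO libraries. The CTPS1 log2 change was -1.03 ± 0.21 (adjusted p = 0.00203), and -0.74 after centring. UMPS, which makes UMP, averaged 5.99 ± 0.931 FPKM at 1000 nM, against 11.4 ± 1.68 FPKM in DMSO. The UMPS log2 change was -0.83 ± 0.17 (adjusted p = 0.00224), and -0.53 after centring. GART, a purine synthesis enzyme, averaged 14.2 ± 2.37 FPKM at 1000 nM, against 23.7 ± 0.921 FPKM in DMSO. The GART log2 change was -0.71 ± 0.17 (adjusted p = 0.00640), and -0.42 after centring. CAD, CTPS1 and UMPS all belong to pyrimidine synthesis. RRM2, the ribonucleotide reductase subunit made in S phase, averaged 132 ± 11.7 FPKM at 1000 nM, against 184 ± 31.3 FPKM in DMSO. The RRM2 log2 change was -0.46 ± 0.14 (adjusted p = 0.0261), but -0.17 after centring (adjusted p = 0.371). That call was lost without 1000 nM replicates 1 and 2 or DMSO replicates 1 and 2 (adjusted p up to 0.127).

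Of 30 tested mitosis genes 12 (40.0%) were lower, against 15.4% of all genes, and none higher, with a median of -0.50, or -0.21 after centring. After centring 7 were lower and 1 was higher. TTK, the spindle checkpoint kinase MPS1, was measured at 1.35, 1.49 and 1.64 FPKM in the 1000 nM libraries, against 5.65, 9.37 and 6.28 FPKM in the DMSO libraries. The TTK log2 change was -1.68 ± 0.25 (adjusted p = 1.91e-04), and -1.38 after centring. MAD2L1, a checkpoint protein, was measured at 15.6, 19.7 and 16.4 FPKM in the 1000 nM libraries, against 40.3, 41.6 and 40.3 FPKM in the DMSO libraries. The MAD2L1 log2 change was -1.20 ± 0.19 (adjusted p = 2.51e-04), and -0.91 after centring. AURKB, the Aurora kinase of the chromosomal passenger complex, was measured at 171, 168 and 162 FPKM in the 1000 nM libraries, against 411, 427 and 256 FPKM in the DMSO libraries. The AURKB log2 change was -1.09 ± 0.16 (adjusted p = 1.59e-04), and -0.79 after centring. All 3 showed a gap between the groups, narrowest in AURKB, where DMSO replicate 3 lay lowest of its group. TOP2A, topoisomerase II alpha, averaged 93.9 ± 0.884 FPKM at 1000 nM, against 185 ± 54.98 FPKM in DMSO. The TOP2A log2 change was -0.92 ± 0.17 (adjusted p = 0.00121), and -0.63 after centring. CDK1, the mitotic kinase that CDK7 activates, averaged 40.2 ± 4.59 FPKM at 1000 nM, against 76.7 ± 17.8 FPKM in DMSO. The CDK1 log2 change was -0.89 ± 0.16 (adjusted p = 0.00101), and -0.60 after centring. CDCA7, a cell cycle gene that MYC and E2F are known to induce, averaged 11.9 ± 2.56 FPKM at 1000 nM, against 32.5 ± 3.10 FPKM in DMSO, outside the list. The CDCA7 log2 change was -1.39 ± 0.19 (adjusted p = 7.84e-05), and -1.10 after centring. Of 23 tested DNA repair and checkpoint genes 6 fell (median -0.35, or -0.06 after centring), and 1 was lower after centring. The count before centring was 3 without 1000 nM replicate 1 or DMSO replicates 1 and 2. The mismatch repair gene MSH6 (log2 change -1.07 ± 0.16, adjusted p = 1.87e-04, and -0.78 after centring) was among them. FANCA, of the Fanconi anaemia repair pathway, fell (log2 change -0.73 ± 0.24, adjusted p = 0.0459, against -0.43 and adjusted p = 0.198 after centring). The FANCA call was lost without 1000 nM replicates 1 to 3 or DMSO replicates 1 and 2 (adjusted p up to 0.230). CHEK2, a checkpoint kinase, fell (log2 change -0.82 ± 0.26, adjusted p = 0.0381, against -0.52 and adjusted p = 0.171 after centring). The CHEK2 call was lost without 1000 nM replicate 1 or DMSO replicates 1 and 2 (adjusted p up to 0.259).

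Among targets of p53, the stress-activated transcription factor, 12 of 24 tested rose and 1 fell, against 1.78% higher and 15.4% lower over all genes. The list's median was 0.47, or 0.77 after centring, and after centring 17 were higher and 1 lower. Without DMSO replicate 3, 10 were higher and 2 lower (median 0.28), and the count of higher members was 6 without 1000 nM replicate 3 and 7 without 1000 nM replicate 2. GDF15 led with the values given above. SESN2, a sestrin that restrains mTORC1 and also an ATF4 target, was measured at 95.5, 92.2 and 95.4 FPKM in the 1000 nM libraries, against 36.5, 40.3 and 24.7 FPKM in the DMSO libraries. The SESN2 log2 change was 1.48 ± 0.16 (adjusted p = 7.41e-06), and 1.78 after centring. GADD45A, a growth arrest gene, was measured at 29.1, 30.9 and 28.8 FPKM in the 1000 nM libraries, against 11.9, 14.4 and 11.6 FPKM in the DMSO libraries. The GADD45A log2 change was 1.17 ± 0.26 (adjusted p = 0.00455), and 1.47 after centring. SESN1, the other sestrin of the list, was measured at 27.4, 32.7 and 30.997 FPKM in the 1000 nM libraries, against 14.9, 16.2 and 12.8 FPKM in the DMSO libraries. The SESN1 log2 change was 1.01 ± 0.18 (adjusted p = 8.44e-04), and 1.30 after centring. In all 3 the treated libraries lay close together and above every DMSO library.

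TP53INP1, which promotes p53 activity and autophagy, was measured at 27.4, 27.5 and 26.9 FPKM in the 1000 nM libraries, against 13.4, 18.04 and 12.03 FPKM in the DMSO libraries. The TP53INP1 log2 change was 0.89 ± 0.20 (adjusted p = 0.00405), and 1.18 after centring. FDXR, ferredoxin reductase, was measured at 85.5, 92.8 and 96.1 FPKM in the 1000 nM libraries, against 61.6, 63.2 and 29.9 FPKM in the DMSO libraries. The FDXR log2 change was 0.89 ± 0.23 (adjusted p = 0.0107), and 1.18 after centring. DMSO replicate 3 lay well below the other 2 in FDXR. BBC3, which encodes the cell death activator PUMA, was measured at 221, 236 and 234 FPKM in the 1000 nM libraries, against 188, 187 and 99.1 FPKM in the DMSO libraries. The BBC3 log2 change was 0.60 ± 0.19 (adjusted p = 0.0317), and 0.90 after centring. DMSO replicate 3 was again the lowest, and the BBC3 call was lost without 1000 nM replicates 1 to 3 or DMSO replicate 3 (adjusted p up to 0.0946). The other called members were named after their values were seen. BTG2, an antiproliferative gene, rose (log2 change 0.70, adjusted p = 0.0317, and 0.99 after centring), a call lost without 1000 nM replicates 1 to 3 or DMSO replicate 3 (adjusted p up to 0.107). TIGAR, a glycolysis regulator, rose (log2 change 0.64, adjusted p = 0.0108, and 0.93 after centring), a call lost without 1000 nM replicate 3 (adjusted p = 0.0531). ZMAT3, an RNA-binding protein, rose (log2 change 0.54, adjusted p = 0.0461, and 0.83 after centring), a call lost without 1000 nM replicates 1 to 3 or DMSO replicates 1 and 2 (adjusted p up to 0.175). PPM1D, a phosphatase that acts on p53, rose (log2 change 0.53, adjusted p = 0.0310, and 0.82 after centring), a call lost without 1000 nM replicates 2 and 3 or DMSO replicates 1 and 2 (adjusted p up to 0.114). PLK3, a polo-like kinase, rose (log2 change 0.53, adjusted p = 0.0287, and 0.82 after centring), a call lost without 1000 nM replicates 2 and 3 or DMSO replicates 1 and 2 (adjusted p up to 0.110). MDM2, the ubiquitin ligase that degrades p53, was the member that fell, at 33.8, 38.2 and 40.9 FPKM in the 1000 nM libraries, against 73.8, 74.8 and 51.4 FPKM in the DMSO libraries. The MDM2 log2 change was -0.79 ± 0.19 (adjusted p = 0.00643), and -0.50 after centring. CDKN1A, the CDK inhibitor p21, was measured at 249, 245 and 301 FPKM in the 1000 nM libraries, against 263, 229 and 131 FPKM in the DMSO libraries. The CDKN1A log2 change was 0.40 ± 0.24 (adjusted p = 0.277), but 0.70 after centring (adjusted p = 0.0316). Its groups overlapped. PMAIP1, which encodes the BH3 protein NOXA, averaged 20.6 ± 0.530 FPKM at 1000 nM, against 23.6 ± 4.92 FPKM in DMSO and was not called (adjusted p = 0.531).

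Immediate early genes moved in both directions. Of 9 tested AP-1 factors 3 rose and 2 fell (median -0.32, or -0.02 after centring). FOS, the prototype member, was measured at 3.15, 2.69 and 4.22 FPKM in the 1000 nM libraries, against 1.10, 0.637 and 1.07 FPKM in the DMSO libraries. The FOS log2 change was 1.16 ± 0.36 (adjusted p = 0.0328), and 1.46 after centring. The level was low in both groups, and the FOS call was lost without 1000 nM replicates 1 to 3 or DMSO replicates 1 and 2 (adjusted p up to 0.124). JUNB was measured at 22.6, 24.6 and 24.8 FPKM in the 1000 nM libraries, against 15.1, 13.02 and 16.2 FPKM in the DMSO libraries. The JUNB log2 change was 0.67 ± 0.17 (adjusted p = 0.0115), and 0.96 after centring. ATF3 averaged 3.79 ± 0.804 FPKM at 1000 nM, against 1.84 ± 0.175 FPKM in DMSO. The ATF3 log2 change was 0.74 ± 0.25 (adjusted p = 0.0423), and 1.04 after centring. BATF3, an AP-1 factor of lymphocytes and dendritic cells, was measured at 9.69, 5.997 and 8.54 FPKM in the 1000 nM libraries, against 19.9, 23.04 and 20.9 FPKM in the DMSO libraries. The BATF3 log2 change was -1.32 ± 0.26 (adjusted p = 0.00178), and -1.02 after centring. JUN averaged 4.16 ± 0.219 FPKM at 1000 nM, against 6.73 ± 1.45 FPKM in DMSO. The JUN log2 change was -0.57 ± 0.18 (adjusted p = 0.0376), but -0.27 after centring (adjusted p = 0.243). The call of JUNB was lost without DMSO replicate 2 (adjusted p = 0.0632). That of ATF3 was lost without 1000 nM replicates 2 and 3 or DMSO replicates 1 to 3 (adjusted p up to 0.134). That of JUN was lost without 1000 nM replicates 1 to 3 or DMSO replicates 1 and 2 (adjusted p up to 0.177). Of 20 tested EGR, IER, KLF and other immediate early genes 2 rose and 1 fell (median 0.00, or 0.30 after centring), with 2 lower without DMSO replicate 3. IER3 was measured at 49.6, 50.4 and 48.98 FPKM in the 1000 nM libraries, against 18.2, 19.5 and 11.4 FPKM in the DMSO libraries. The IER3 log2 change was 1.58 ± 0.19 (adjusted p = 2.04e-05), and 1.87 after centring. PPP1R15A, the phosphatase subunit that reverses the integrated stress response, averaged 40.8 ± 3.03 FPKM at 1000 nM, against 26.5 ± 1.65 FPKM in DMSO. The PPP1R15A log2 change was 0.60 ± 0.14 (adjusted p = 0.00550), and 0.89 after centring. KLF2, a transcription factor of lymphocyte quiescence and homing, was measured at 19.04, 18.6 and 18.6 FPKM in the 1000 nM libraries, against 54.7, 54.3 and 83.9 FPKM in the DMSO libraries. The KLF2 log2 change was -1.70 ± 0.20 (adjusted p = 1.41e-05), and -1.40 after centring. The treated libraries of KLF2 lay near one value. EGR1 averaged 4.13 ± 1.49 FPKM at 1000 nM, against 2.87 ± 1.04 FPKM in DMSO and was not called (adjusted p = 0.290), while after centring it was (log2 change 0.70, adjusted p = 0.0188).

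NF-kappaB subunits and feedback targets were lower in 6 of 14 tested and higher in none (median -0.44, or -0.15 after centring). After centring 2 were lower and 2 higher, and the count of lower members was 2 without 1000 nM replicate 2 or DMSO replicate 2 and 3 without 1000 nM replicate 1 or DMSO replicate 1. BIRC3, the inhibitor of apoptosis cIAP2, was measured at 10.2, 11.1 and 11.4 FPKM in the 1000 nM libraries, against 29.2, 32.5 and 23.3 FPKM in the DMSO libraries. The BIRC3 log2 change was -1.29 ± 0.16 (adjusted p = 3.81e-05), and -0.999 after centring. NFKB2, the precursor of p52, averaged 0.857 ± 0.179 FPKM at 1000 nM, against 2.08 ± 0.283 FPKM in DMSO. The NFKB2 log2 change was -0.73 ± 0.18 (adjusted p = 0.00683), but -0.44 after centring (adjusted p = 0.0747). CCL3, a chemokine, fell (log2 change -1.05 ± 0.31, adjusted p = 0.0280, against -0.76 and adjusted p = 0.188 after centring). The CCL3 call was lost without 1000 nM replicates 1 and 2 or DMSO replicates 1 and 2 (adjusted p up to 0.116). ICAM1, an adhesion molecule, fell (log2 change -0.78 ± 0.22, adjusted p = 0.0176, against -0.48 and adjusted p = 0.0524 after centring). The ICAM1 call was lost without 1000 nM replicates 1 and 2 or DMSO replicates 1 and 2 (adjusted p up to 0.0842). Of 14 tested interferon response genes 1 fell (2 without DMSO replicate 2), with a median of -0.14, or 0.15 after centring. That gene, the interferon-induced transcription factor IRF1, was measured at 5.76, 6.42 and 7.36 FPKM in the 1000 nM libraries, against 17.2, 17.99 and 11.9 FPKM in the DMSO libraries. The IRF1 log2 change was -1.14 ± 0.20 (adjusted p = 7.53e-04), and -0.84 after centring.

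Plasma cell transcription factors were lower in 5 of 16 tested and higher in none (median -0.45, or -0.15 after centring), and 3 were lower after centring. The count before centring was 3 without DMSO replicate 2 and 10 without DMSO replicate 3. IRF4, on which myeloma cells depend, was measured at 18.6, 20.7 and 21.5 FPKM in the 1000 nM libraries, against 31.6, 32.6 and 34.2 FPKM in the DMSO libraries. The IRF4 log2 change was -0.67 ± 0.15 (adjusted p = 0.00509), but -0.38 after centring (adjusted p = 0.108). TCF4, an E protein, was measured at 17.7, 15.6 and 15.8 FPKM in the 1000 nM libraries, against 38.9, 40.02 and 33.1 FPKM in the DMSO libraries. The TCF4 log2 change was -1.14 ± 0.15 (adjusted p = 6.46e-05), and -0.84 after centring. SPIB, an ETS factor of the B lineage, averaged 2.54 ± 0.228 FPKM at 1000 nM, against 6.07 ± 0.322 FPKM in DMSO. The SPIB log2 change was -0.999 ± 0.19 (adjusted p = 0.00152), and -0.71 after centring. The treated libraries of all 3 lay below all DMSO libraries. MEF2C averaged 12.3 ± 0.675 FPKM at 1000 nM, against 20.2 ± 3.13 FPKM in DMSO. The MEF2C log2 change was -0.67 ± 0.17 (adjusted p = 0.00979), and -0.37 after centring. That call was lost without DMSO replicate 2 (adjusted p = 0.0609). CREB3L2, a transcription factor of the secretory pathway, averaged 7.12 ± 1.21 FPKM at 1000 nM, against 14.1 ± 2.13 FPKM in DMSO. The CREB3L2 log2 change was -0.90 ± 0.19 (adjusted p = 0.00283), and -0.61 after centring. PRDM1, the plasma cell regulator BLIMP1, averaged 9.33 ± 0.957 FPKM at 1000 nM, against 9.18 ± 0.431 FPKM in DMSO (adjusted p = 0.969). XBP1, which expands the secretory apparatus, averaged 88.9 ± 15.1 FPKM at 1000 nM, against 119 ± 25.98 FPKM in DMSO (adjusted p = 0.109). IKZF1 and IKZF3 are the targets of lenalidomide-type drugs. IKZF1 averaged 7.82 ± 0.731 FPKM at 1000 nM, against 11.7 ± 1.84 FPKM in DMSO (adjusted p = 0.0646). IKZF3 averaged 5.69 ± 0.220 FPKM at 1000 nM, against 7.05 ± 1.08 FPKM in DMSO (adjusted p = 0.356). Neither was called, though the libraries of each did not overlap.

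Surface and secretory genes of plasma cells were lower in 7 of 20 tested and higher in none (median -0.32, or -0.03 after centring). After centring 2 were lower, and the count before centring was 2 without DMSO replicate 1, 3 without 1000 nM replicates 1 and 2 and 4 without DMSO replicate 2. SLAMF7, the target of the antibody elotuzumab, was measured at 11.6, 12.7 and 18.7 FPKM in the 1000 nM libraries, against 36.6, 35.1 and 27.6 FPKM in the DMSO libraries. The SLAMF7 log2 change was -1.17 ± 0.20 (adjusted p = 6.58e-04), and -0.88 after centring. TNFRSF17, the BCMA antigen of CAR T cells, was measured at 81.8, 86.1 and 96.01 FPKM in the 1000 nM libraries, against 176, 166 and 149.8 FPKM in the DMSO libraries. The TNFRSF17 log2 change was -0.89 ± 0.19 (adjusted p = 0.00286), but -0.60 after centring (adjusted p = 0.0931). Both sets of libraries were apart for each antigen. TNFRSF13B, the related receptor TACI, averaged 4.50 ± 0.730 FPKM at 1000 nM, against 11.2 ± 4.76 FPKM in DMSO. The TNFRSF13B log2 change was -1.07 ± 0.26 (adjusted p = 0.00687), and -0.78 after centring. That call was lost without DMSO replicate 1 (adjusted p = 0.0560). CD48, a surface protein, averaged 63.01 ± 5.03 FPKM at 1000 nM, against 106 ± 18.7 FPKM in DMSO. The CD48 log2 change was -0.73 ± 0.22 (adjusted p = 0.0291), but -0.44 after centring (adjusted p = 0.142). That call was lost without 1000 nM replicates 1 to 3 or DMSO replicates 1 and 3 (adjusted p up to 0.107). SDC1, the plasma cell marker CD138, was measured at 2916, 3281 and 3236 FPKM in the 1000 nM libraries, against 4658, 4241 and 3115 FPKM in the DMSO libraries and was not called (adjusted p = 0.468), with overlapping groups. JCHAIN, the joining chain of polymeric antibodies, averaged 1141 ± 104 FPKM at 1000 nM, against 1206 ± 165 FPKM in DMSO (adjusted p = 0.912).

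CIITA, the master activator of MHC class II genes, was measured at 5.61, 5.83 and 5.66 FPKM in the 1000 nM libraries, against 26.2, 30.3 and 20.7 FPKM in the DMSO libraries. The CIITA log2 change was -1.98 ± 0.15 (adjusted p = 8.06e-08), and -1.69 after centring. Its 3 treated libraries lay within 5.61 to 5.83 FPKM, below the lowest DMSO library at 20.7 FPKM. It was the only called gene of the 13 tested in the class II list, whose median was -0.04, or 0.25 after centring. HLA-DRA, the alpha chain of HLA-DR, named after its values were seen, was measured at 411, 375 and 427 FPKM in the 1000 nM libraries, against 437, 476 and 359 FPKM in the DMSO libraries and was not called (adjusted p = 0.889).

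Members of the BCL2 family of cell death regulators were mostly not called. Of 14 tested, BBC3 rose and BAK1 fell, with a median of -0.17, or 0.12 after centring. BAK1 is a pore-forming death effector, and it was the lower member (log2 change -0.64 ± 0.21, adjusted p = 0.0394, against -0.34 and adjusted p = 0.246 after centring). Its call was lost without 1000 nM replicates 1 to 3 or DMSO replicates 1 and 2 (adjusted p up to 0.193). MCL1, the survival protein many myeloma cells need, was measured at 601, 685 and 692 FPKM in the 1000 nM libraries, against 632, 608 and 493 FPKM in the DMSO libraries, with overlapping groups (adjusted p = 0.421). After centring its log2 change was 0.49 (adjusted p = 0.0288). The survival gene BCL2L1 averaged 0.898 ± 0.173 FPKM at 1000 nM, against 1.16 ± 0.450 FPKM in DMSO (adjusted p = 0.765). The death activator BCL2L11, or BIM, averaged 17.1 ± 3.34 FPKM at 1000 nM, against 18.01 ± 2.06 FPKM in DMSO (adjusted p = 0.845).

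Amino acid stress genes under ATF4 were lower in 8 of 20 tested and higher in 1, SESN2 (median -0.41, or -0.12 after centring). After centring 4 were lower, and before it the count was 5 without DMSO replicates 1 and 2. ATF4 itself was measured at 235, 262 and 275 FPKM in the 1000 nM libraries, against 513, 489 and 242 FPKM in the DMSO libraries. The ATF4 log2 change was -0.61 ± 0.20 (adjusted p = 0.0394), but -0.32 after centring (adjusted p = 0.283). DMSO replicate 3 lay among the treated values, and the ATF4 call was lost without 1000 nM replicates 1 to 3 or DMSO replicates 1 and 2 (adjusted p up to 0.206). CHAC1, which degrades glutathione, was measured at 5.48, 4.50 and 3.59 FPKM in the 1000 nM libraries, against 10.7, 13.5 and 8.54 FPKM in the DMSO libraries. The CHAC1 log2 change was -1.10 ± 0.26 (adjusted p = 0.00660), but -0.81 after centring (adjusted p = 0.0649). The pseudokinase TRIB3 averaged 38.4 ± 3.77 FPKM at 1000 nM, against 68.4 ± 11.9 FPKM in DMSO. The TRIB3 log2 change was -0.81 ± 0.15 (adjusted p = 0.00122), and -0.51 after centring. The amino acid transporter SLC38A2 averaged 13.1 ± 1.27 FPKM at 1000 nM, against 24.3 ± 2.84 FPKM in DMSO. The SLC38A2 log2 change was -0.84 ± 0.16 (adjusted p = 0.00144), and -0.55 after centring. ATF5 averaged 5.66 ± 0.631 FPKM at 1000 nM, against 14.2 ± 6.87 FPKM in DMSO. The ATF5 log2 change was -1.06 ± 0.26 (adjusted p = 0.00762), and -0.77 after centring. That call was lost without DMSO replicates 1 and 2 (adjusted p up to 0.0647).

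Of 24 tested ER chaperone, unfolded protein and ER degradation genes 4 fell (16.7%, near the 15.4% of all genes) and none rose (median -0.11, or 0.19 after centring). HERPUD1, which organises ER-associated degradation, was measured at 18.2, 18.1 and 23.03 FPKM in the 1000 nM libraries, against 58.02, 65.1 and 71.6 FPKM in the DMSO libraries. The HERPUD1 log2 change was -1.67 ± 0.17 (adjusted p = 3.06e-06), and -1.37 after centring. A clear gap lay between its groups. HSPA5, the ER chaperone BiP, was measured at 469, 476 and 469.6 FPKM in the 1000 nM libraries, against 959, 961 and 569 FPKM in the DMSO libraries. The HSPA5 log2 change was -0.77 ± 0.17 (adjusted p = 0.00323), but -0.48 after centring (adjusted p = 0.0834). Its treated libraries lay within a narrow band. MANF, a secreted ER stress protein, averaged 168 ± 11.9 FPKM at 1000 nM, against 276 ± 42.2 FPKM in DMSO. The MANF log2 change was -0.71 ± 0.18 (adjusted p = 0.0117), but -0.41 after centring (adjusted p = 0.115). That call was lost without 1000 nM replicate 1 (adjusted p = 0.0564). Of 18 tested heat shock chaperones 4 fell (22.2%, against 15.4% of all genes; 10 without DMSO replicate 3), led by HSPA8. Their median was -0.27, or 0.02 after centring. DNAJA1, a partner of HSP70, averaged 38.05 ± 6.07 FPKM at 1000 nM, against 80.3 ± 8.97 FPKM in DMSO. The DNAJA1 log2 change was -1.06 ± 0.16 (adjusted p = 1.74e-04), and -0.77 after centring. CHORDC1, a partner of HSP90, averaged 4.87 ± 0.613 FPKM at 1000 nM, against 10.5 ± 0.677 FPKM in DMSO. The CHORDC1 log2 change was -0.97 ± 0.23 (adjusted p = 0.00673), and -0.68 after centring. HSPE1, the small subunit of the mitochondrial chaperonin, averaged 559 ± 43.9 FPKM at 1000 nM, against 839.6 ± 77.6 FPKM in DMSO. The HSPE1 log2 change was -0.58 ± 0.14 (adjusted p = 0.00693), but -0.29 after centring (adjusted p = 0.130).

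Of 17 tested hosts of small nucleolar RNAs, whose spliced transcripts turn over fast, 11 fell and none rose (median -0.65, or -0.35 after centring; 6 lower after centring). SNHG12 was measured at 14.2, 18.05 and 21.7 FPKM in the 1000 nM libraries, against 79.2, 73.8 and 59.7 FPKM in the DMSO libraries. The SNHG12 log2 change was -1.93 ± 0.20 (adjusted p = 5.31e-06), and -1.63 after centring. SNHG3 averaged 12.97 ± 1.16 FPKM at 1000 nM, against 45.6 ± 11.5 FPKM in DMSO. The SNHG3 log2 change was -1.71 ± 0.20 (adjusted p = 1.61e-05), and -1.42 after centring. SNHG7 averaged 42.9 ± 3.80 FPKM at 1000 nM, against 129 ± 18.6 FPKM in DMSO. The SNHG7 log2 change was -1.57 ± 0.18 (adjusted p = 1.41e-05), and -1.27 after centring. Of 28 tested splicing regulators 13 fell and none rose (median -0.44, or -0.15 after centring). After centring 7 were lower and 1 higher, and before it the count of lower members was 8 without DMSO replicate 2. SRSF3, a serine and arginine rich splicing factor, was measured at 29.6, 35.2 and 36.5 FPKM in the 1000 nM libraries, against 119.9, 116 and 105 FPKM in the DMSO libraries. The SRSF3 log2 change was -1.73 ± 0.13 (adjusted p = 8.06e-08), and -1.43 after centring. RBM39, a splicing factor and the target of degrader sulfonamides, was measured at 39.4, 47.9 and 53.8 FPKM in the 1000 nM libraries, against 192, 179.6 and 111 FPKM in the DMSO libraries. The RBM39 log2 change was -1.72 ± 0.18 (adjusted p = 4.77e-06), and -1.43 after centring. The treated libraries of both lay well below the lowest DMSO value. SRSF6, a relative of SRSF3, averaged 16.7 ± 2.05 FPKM at 1000 nM, against 40.1 ± 5.24 FPKM in DMSO. The SRSF6 log2 change was -1.22 ± 0.16 (adjusted p = 4.85e-05), and -0.92 after centring. SRSF1, another relative, averaged 119 ± 26.4 FPKM at 1000 nM, against 273 ± 58.99 FPKM in DMSO. The SRSF1 log2 change was -1.20 ± 0.21 (adjusted p = 8.44e-04), and -0.90 after centring. Of 23 tested tRNA modification enzymes 10 fell (median -0.54, or -0.24 after centring), and 4 were lower and 1 higher after centring. The count of lower members before centring was 4 without DMSO replicate 1 and 6 without 1000 nM replicate 1 or DMSO replicate 2. METTL1 led them with the values given above. TRMU, a mitochondrial tRNA thiolase, averaged 16.8 ± 1.97 FPKM at 1000 nM, against 33.6 ± 5.99 FPKM in DMSO. The TRMU log2 change was -0.95 ± 0.17 (adjusted p = 7.69e-04), and -0.66 after centring. TRMT61A, a tRNA methyltransferase, averaged 7.16 ± 0.511 FPKM at 1000 nM, against 13.1 ± 1.55 FPKM in DMSO. The TRMT61A log2 change was -0.79 ± 0.16 (adjusted p = 0.00206), and -0.49 after centring. DUS3L, a dihydrouridine synthase, averaged 13.1 ± 1.35 FPKM at 1000 nM, against 23.1 ± 0.698 FPKM in DMSO. The DUS3L log2 change was -0.78 ± 0.17 (adjusted p = 0.00402), and -0.49 after centring.

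Of 23 tested genes of cholesterol synthesis and its SREBP control 9 fell and 1 rose (median -0.39, or -0.09 after centring). After centring 2 were lower and 1 was higher. The count of lower members was 2 without 1000 nM replicates 1 and 2 or DMSO replicate 2, 3 without DMSO replicate 1 and 4 without 1000 nM replicate 3. INSIG1, which retains SREBP in the ER, was measured at 37.9, 40.4 and 43.2 FPKM in the 1000 nM libraries, against 87.6, 93.3 and 81.7 FPKM in the DMSO libraries. The INSIG1 log2 change was -1.09 ± 0.18 (adjusted p = 4.94e-04), and -0.80 after centring. DHCR7, the last enzyme of the pathway, averaged 20.4 ± 4.08 FPKM at 1000 nM, against 36.2 ± 3.95 FPKM in DMSO. The DHCR7 log2 change was -0.81 ± 0.16 (adjusted p = 0.00190), and -0.52 after centring. HMGCS1, an early enzyme of the pathway, fell (log2 change -0.68 ± 0.22, adjusted p = 0.0338, against -0.39 and adjusted p = 0.177 after centring). The HMGCS1 call was lost without 1000 nM replicates 1 and 2 or DMSO replicates 1 and 2 (adjusted p up to 0.190). SREBF1, which encodes a sterol regulator, fell (log2 change -0.74 ± 0.23, adjusted p = 0.0281, against -0.45 and adjusted p = 0.0961 after centring). The SREBF1 call was lost without 1000 nM replicates 1 to 3 or DMSO replicates 2 and 3 (adjusted p up to 0.0860). The rise was that of the sterol carrier STARD4 (log2 change 0.84 ± 0.26, adjusted p = 0.0306, and 1.14 after centring), lost without 1000 nM replicates 1 and 2 or DMSO replicates 1 to 3 (adjusted p up to 0.123). Of 21 tested glycolysis genes 3 fell (median -0.10, or 0.19 after centring). That share was 14.3%, near the 15.4% of all genes, whose median was -0.18, or 0.11 after centring. The count was 1 without 1000 nM replicates 1 and 2 or DMSO replicates 1 and 2 and 5 without DMSO replicate 3. HK2, the inducible hexokinase, was measured at 5.37, 6.31 and 7.48 FPKM in the 1000 nM libraries, against 19.1, 17.7 and 13.6 FPKM in the DMSO libraries. The HK2 log2 change was -1.27 ± 0.20 (adjusted p = 2.43e-04), and -0.97 after centring. Its groups were separated. PFKP, a phosphofructokinase, fell (log2 change -0.59 ± 0.17, adjusted p = 0.0237, against -0.29 and adjusted p = 0.278 after centring). The PFKP call was lost without 1000 nM replicates 1 and 2 or DMSO replicates 1 and 2 (adjusted p up to 0.109). SLC2A3, a glucose transporter, fell (log2 change -0.54 ± 0.18, adjusted p = 0.0425, against -0.25 and adjusted p = 0.278 after centring). The SLC2A3 call was lost without 1000 nM replicates 1 to 3 or DMSO replicates 1 and 2 (adjusted p up to 0.195). Of 5 tested drug efflux transporters ABCC1 fell (log2 change -0.72 ± 0.22, adjusted p = 0.0300, against -0.43 and adjusted p = 0.0875 after centring). The ABCC1 call was lost without 1000 nM replicates 1 to 3 or DMSO replicates 1 to 3 (adjusted p up to 0.106). ABCB1, or P-glycoprotein, averaged 2.15 ± 0.172 FPKM at 1000 nM, against 2.66 ± 0.931 FPKM in DMSO (adjusted p = 0.602).

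Histone cluster genes went both ways, with 3 of 21 tested higher and 2 lower (median -0.21, or 0.08 after centring; 4 higher and none lower after centring). Besides HIST2H2BE, HIST1H2BK was measured at 119, 115 and 109 FPKM in the 1000 nM libraries, against 50.9, 63.6 and 65.7 FPKM in the DMSO libraries. The HIST1H2BK log2 change was 0.93 ± 0.14 (adjusted p = 1.76e-04), and 1.22 after centring. HIST1H3D was measured at 7.43, 9.25 and 6.71 FPKM in the 1000 nM libraries, against 2.49, 3.35 and 3.52 FPKM in the DMSO libraries. The HIST1H3D log2 change was 1.09 ± 0.22 (adjusted p = 0.00224), and 1.39 after centring. The linker histone HIST1H1E averaged 3.71 ± 1.08 FPKM at 1000 nM, against 8.82 ± 0.902 FPKM in DMSO. The HIST1H1E log2 change was -1.08 ± 0.23 (adjusted p = 0.00316), but -0.79 after centring (adjusted p = 0.0583). HIST1H4C averaged 1049 ± 204 FPKM at 1000 nM, against 1892 ± 384 FPKM in DMSO. The HIST1H4C log2 change was -0.85 ± 0.21 (adjusted p = 0.00734), but -0.55 after centring (adjusted p = 0.176). Reads of near-identical copies make single histone values uncertain, and 3′ tags reach mainly polyadenylated histone messengers. Of the lists of other cell types, none of the 5 tested T cell and myeloid markers and none of the 13 tested erythroid markers was called. None of them had an unadjusted p under 0.05 by limma. Both lists lay near the floor in AMO1, so the lack of calls says little. The highest group mean was 1.64 FPKM for a T cell and myeloid marker (CD3E in DMSO) and 2.56 FPKM for an erythroid one (HBG2 in DMSO). The stromal and epithelial list had 1 of 4 tested markers lower. That marker, the keratin KRT18, averaged 0.857 ± 0.257 FPKM at 1000 nM, against 2.17 ± 0.512 FPKM in DMSO. The KRT18 log2 change was -0.77 ± 0.17 (adjusted p = 0.00480), but -0.47 after centring (adjusted p = 0.0711).

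**Figure D3:**
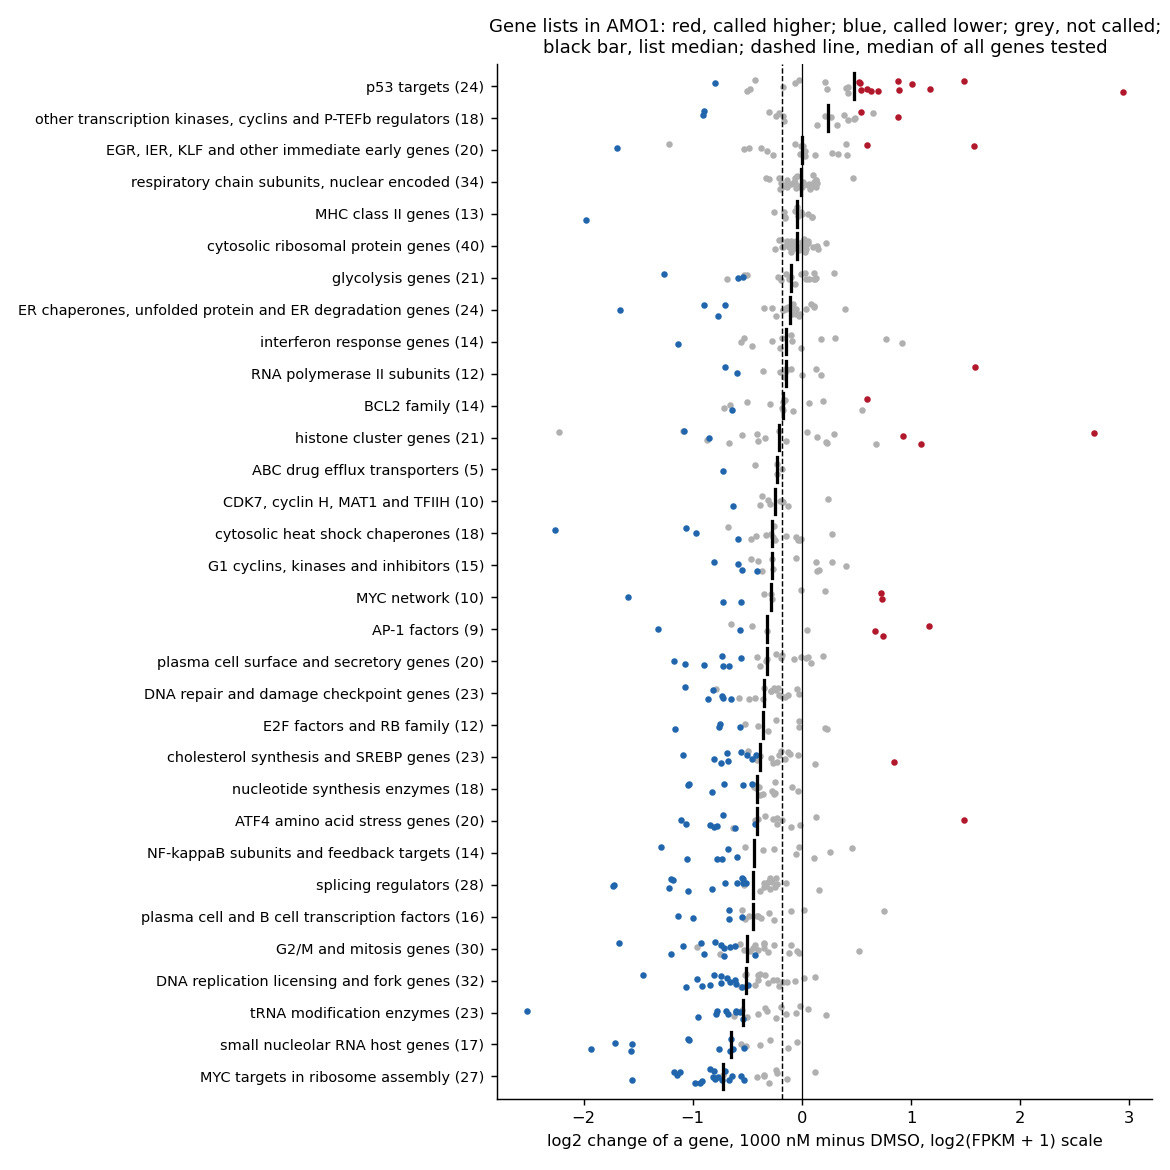
Each row is a gene list and each point 1 tested member, with its log2(FPKM + 1) change, 1000 nM minus DMSO, across the page. Points are red where called higher, blue where called lower and grey where not called, with a bar at the list median and the number tested in brackets. The p53 targets have the highest median (0.47) and the ribosome assembly genes the lowest (-0.72), and the dashed line marks the median of all genes, -0.18.

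The lower dose allows the order of the levels to be read. At 100 nM 268 genes (2.2%) were called against the same DMSO libraries, 53 (0.434%) higher and 215 (1.76%) lower. The total was 942 without DMSO replicate 3 and 100 to 136 without DMSO replicate 1 or 2 or 100 nM replicate 1 or 2. Since both doses share the DMSO libraries, only the direct test of 1000 nM against 100 nM bears on a difference between doses. That test called 22 genes (0.18%), 4 (0.0328%) higher and 18 (0.147%) lower, with 1282 at an unadjusted p under 0.05. METTL1 was measured at 49.3, 55.7 and 30.5 FPKM in DMSO, 20.1, 22.3 and 17.2 FPKM at 100 nM and 7.36, 6.23 and 6.90 FPKM at 1000 nM. The METTL1 difference between the doses, 1000 nM minus 100 nM on the log2(FPKM + 1) scale, was called (log2 difference -1.41 ± 0.19, adjusted p = 0.00283). Each group lay below the one before it. ZBTB32 was measured at 37.4, 36.8 and 28.7 FPKM in DMSO, 12.1, 11.8 and 16.1 FPKM at 100 nM and 5.48, 5.95 and 4.91 FPKM at 1000 nM, in the same order (log2 difference -1.15 ± 0.17, adjusted p = 0.00469). CIITA was measured at 26.2, 30.3 and 20.7 FPKM in DMSO, 11.6, 11.4 and 12.5 FPKM at 100 nM and 5.61, 5.83 and 5.66 FPKM at 1000 nM (log2 difference -0.94 ± 0.15, adjusted p = 0.0138). Here too no library of one group overlapped the next. Genes named for the largest dose differences had to have 1000 nM libraries that did not overlap the 100 nM ones. For METTL1, ZBTB32, CIITA and GDF15, separation of 1000 nM from 100 nM and from DMSO was thus set in advance. GDF15 was measured at 36.7, 32.2 and 17.7 FPKM in DMSO, 115, 87.7 and 109.97 FPKM at 100 nM and 202, 231 and 225 FPKM at 1000 nM (log2 difference 1.07 ± 0.20, adjusted p = 0.0220), ordered the other way. YEATS4, a chromatin reader (log2 difference -0.96 ± 0.17, adjusted p = 0.0220), and CDCA7 (log2 difference -0.94 ± 0.19, adjusted p = 0.0453) were lower at 1000 nM than at 100 nM as well. So were AURKB (log2 difference -0.83 ± 0.16, adjusted p = 0.0359) and SRSF3 (log2 difference -0.79 ± 0.13, adjusted p = 0.0171). The count of 22 was 2 to 7 without any 1 library other than replicate 2 of the 100 nM group, without which it was 17. The METTL1 call held without any 1 of the 6 libraries (adjusted p up to 0.0235). That of ZBTB32 was lost without replicate 3 of either dose (up to 0.0864). Those of CIITA (up to 0.107) and SRSF3 (up to 0.116) were lost without any library but replicate 2 of the 100 nM group. Those of GDF15 (up to 0.143), YEATS4 (up to 0.166), CDCA7 (up to 0.330) and AURKB (up to 0.174) were lost whichever of the 6 libraries was left out. After centring AURKB (adjusted p = 0.126) and CDCA7 (adjusted p = 0.0546) were not called. POLR2A stood almost level at both doses, at 71.5, 63.99 and 41.1 FPKM in DMSO, 203, 151 and 188 FPKM at 100 nM and 149.8, 183 and 193 FPKM at 1000 nM (log2 difference -0.04 ± 0.18, adjusted p = 0.997). SNHG12 was measured at 79.2, 73.8 and 59.7 FPKM in DMSO, 14.8, 19.8 and 22.003 FPKM at 100 nM and 14.2, 18.05 and 21.7 FPKM at 1000 nM (log2 difference -0.06 ± 0.20, adjusted p = 0.990). For these 2 genes the libraries of both doses overlapped, and a p above the threshold does not show that the doses act alike.

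**Figure D4:**
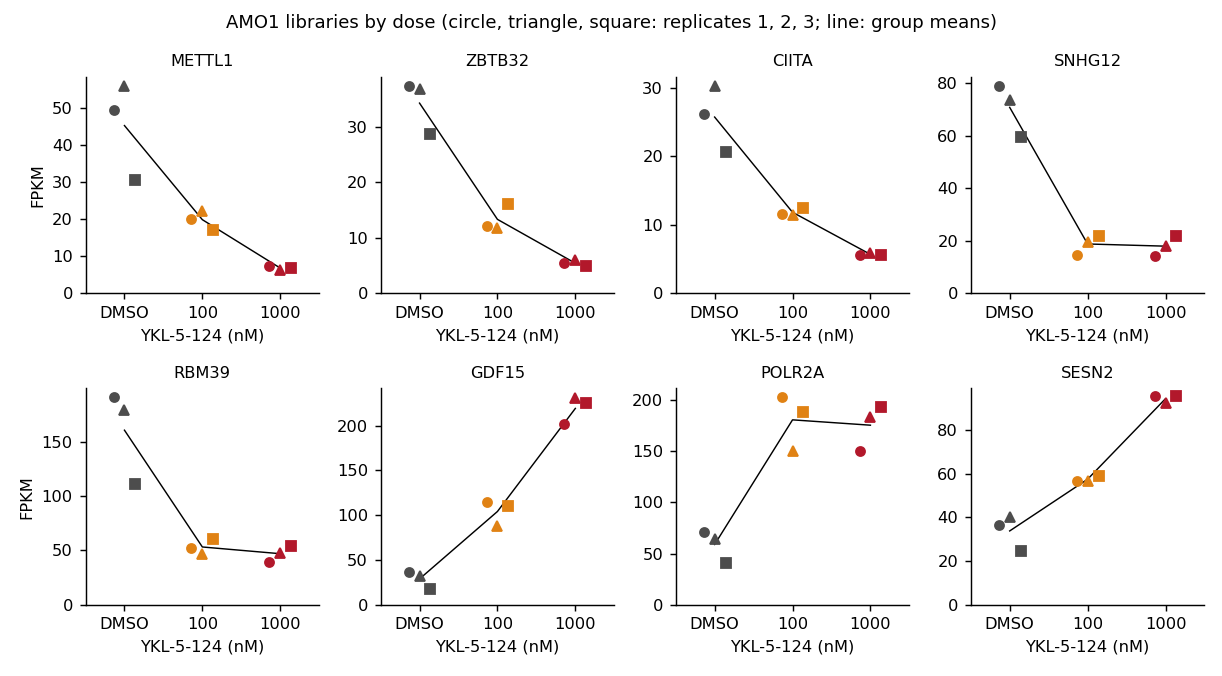
Each panel is 1 gene, and each point is the FPKM of 1 AMO1 library on a linear axis from 0 in DMSO, 100 nM and 1000 nM from left to right, 3 libraries a group, with lines through the group means. METTL1, ZBTB32 and CIITA lie lower and GDF15 higher at each dose than at the one before. Separation of 100 nM from 1000 nM was a condition for naming the largest dose differences. SESN2 is shown as well, and its difference between the doses is not reported here. The libraries of POLR2A, SNHG12 and RBM39 overlap between 100 nM and 1000 nM.

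The libraries labelled XG1 allow a test of whether the response differs between lines, with the limit that their label is in doubt. In their DMSO libraries the plasma cell markers IRF4, JCHAIN and SDC1 averaged 0.171, 2.77 and 12.1 FPKM, against 32.8, 1206 and 4004 FPKM in AMO1. These are only some of the 10 plasma cell markers checked in AMO1. The others are not reported here for the libraries labelled XG1. In them 2152 genes (17.6%) were called at 1000 nM against DMSO, 232 (1.9%) higher and 1920 (15.7%) lower. Genes called lower in both numbered 927, or 49.5% of those of AMO1 and 48.3% of those labelled XG1. Genes called higher in both numbered 64, or 29.5% of those of AMO1 and 27.6% of those labelled XG1. Over 5433 genes with a DMSO mean of at least 5 FPKM in both, Pearson's correlation of the log2 changes was 0.505, a description over genes, which are not independent. The responses differed for 83 genes (0.68%) by an interaction test, 43 (0.352%) with the AMO1 change above and 40 (0.328%) below. That count was 165 without AMO1 DMSO replicate 3, and 42 to 55 without AMO1 1000 nM replicate 1 or 2, AMO1 DMSO replicate 1 or 2, 1000 nM replicate 1 labelled XG1 or DMSO replicate 1 or 2 labelled XG1, each alone. Of the 83, 30 stood under 1 FPKM in both groups labelled XG1 and 20 under 1 FPKM in both AMO1 groups, so that only 33 were measurable in both.

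ZBTB32 and CIITA were among the 30, at the floor of the libraries labelled XG1. ZBTB32 averaged 0.111 ± 0.0145 FPKM at 1000 nM, against 0.127 ± 0.0383 FPKM in DMSO there (difference of responses -2.43 ± 0.24, adjusted p = 2.51e-05). CIITA averaged 0.0875 ± 0.0173 FPKM at 1000 nM, against 0.113 ± 0.0256 FPKM in DMSO there (difference of responses -1.95 ± 0.22, adjusted p = 1.18e-04). Some members of the p53 list that rose in AMO1 had a different response in the libraries labelled XG1 by the test. SESN2 averaged 13.5 ± 0.631 FPKM at 1000 nM, against 14.3 ± 2.12 FPKM in DMSO there (difference of responses 1.56 ± 0.23, adjusted p = 0.00140). BBC3 averaged 23.8 ± 1.799 FPKM at 1000 nM, against 46.6 ± 3.23 FPKM in DMSO there, called lower (difference of responses 1.54 ± 0.26, adjusted p = 0.00598). GADD45A averaged 16.6 ± 7.74 FPKM at 1000 nM, against 26.6 ± 5.59 FPKM in DMSO there (difference of responses 1.91 ± 0.37, adjusted p = 0.0171). That difference was lost without any 1 of 3 libraries (adjusted p up to 0.0608). TP53INP1 averaged 1.93 ± 0.841 FPKM at 1000 nM, against 2.77 ± 0.450 FPKM in DMSO there (difference of responses 1.29 ± 0.28, adjusted p = 0.0342). The TP53INP1 difference was lost without any 1 of 6 libraries (adjusted p up to 0.0960). GDF15 was higher in both, at 106 ± 14.7 FPKM at 1000 nM, against 39.4 ± 4.23 FPKM in DMSO there, with a larger change in AMO1 (difference of responses 1.53 ± 0.28, adjusted p = 0.0101). Over the list of p53 targets, 2 were higher and 5 lower in the libraries labelled XG1, with a median change of -0.13. In AMO1 12 were higher and 1 lower, with a median of 0.47, and the difference over the list was not tested. HIST2H2BE averaged 4.52 ± 0.506 FPKM at 1000 nM, against 3.12 ± 0.131 FPKM in DMSO there (difference of responses 2.26 ± 0.30, adjusted p = 8.05e-04). HES6 averaged 63.9 ± 5.47 FPKM at 1000 nM, against 77.3 ± 8.39 FPKM in DMSO there (difference of responses 1.53 ± 0.25, adjusted p = 0.00473). TNFRSF10D averaged 0.162 ± 0.0461 FPKM at 1000 nM, against 0.164 ± 0.0494 FPKM in DMSO there (difference of responses 1.53 ± 0.23, adjusted p = 0.00140). It was thus also among the 30, near the floor of the libraries labelled XG1. METTL1, HSPA8 and MYC fell in both, with no difference called. METTL1 averaged 7.67 ± 1.15 FPKM at 1000 nM, against 35.9 ± 2.24 FPKM in DMSO in the libraries labelled XG1 (difference of responses -0.42 ± 0.27, adjusted p = 0.674). HSPA8 averaged 39.3 ± 6.14 FPKM at 1000 nM, against 147 ± 12.3 FPKM in DMSO in them (difference of responses -0.38 ± 0.31, adjusted p = 0.784). MYC averaged 15.8 ± 5.69 FPKM at 1000 nM, against 59.02 ± 20.6 FPKM in DMSO in them (difference of responses 0.24 ± 0.41, adjusted p = 0.917).

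**Figure D5:**
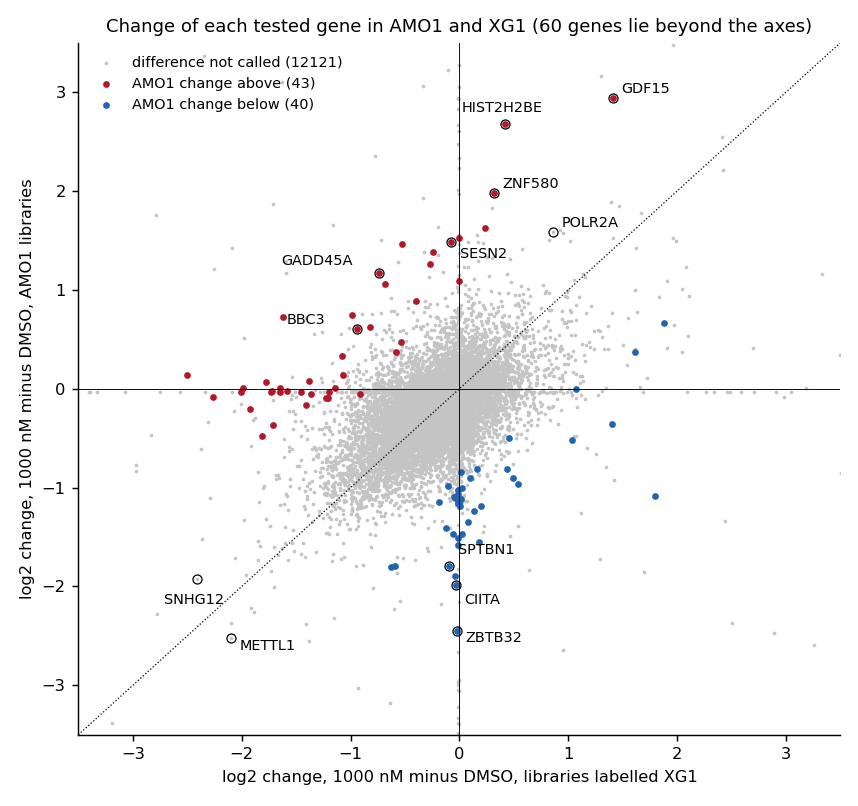
Each point is 1 of the 12204 genes tested, with its log2(FPKM + 1) change, 1000 nM minus DMSO, in AMO1 up the page and in the libraries labelled XG1 across it. Red points are the 43 genes whose AMO1 change was above the other and blue points the 40 below it, and 60 genes lie beyond the axis limit of 3.5. ZBTB32 and CIITA lie far below 0 in AMO1 but near 0 in the libraries labelled XG1, where they were at the floor.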

How the data were processed

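RNA of 18 libraries was measured by QuantSeq 3′ sequencing. Reads were aligned with HISAT2 to hg19 and normalised with Cuffnorm, per the submitters' processing notes, with versions and strand settings not given in the sources used here. Values in the deposited files are taken to be FPKM, because the authors' Cuffnorm step makes that unit and the file headers say only "Expression". The depth behind them is unknown. With strand settings unknown, values of overlapping and antisense genes are uncertain, as are those of near-identical genes, and FPKM levels are not compared between genes. Groups came from the sample labels. A gene entered the fit when 1 or more of the 6 groups averaged 1 FPKM or higher, which 12204 of 26249 did. These genes were fitted on log2(FPKM + 1) with limma 3.58.1 (trend and robust, R 4.3.3, statmod 1.5.0), all 18 libraries with 1 mean per group, two-sided, with Benjamini-Hochberg adjustment over all genes and a threshold of 0.05. A pseudocount of 1 understates changes of low genes. Alternatives were pseudocounts of 0.1 and 5, no filter or a mean of 5 FPKM, median centring, quantile normalization, spike-in scaling, only the libraries compared, no trend or robust estimation, a replicate block, and leaving out each library. Centring without DMSO replicate 3 was added after seeing the data. Genes were named by rule: the 15 largest rises and falls with groups that do not overlap and a higher mean of at least 5 FPKM, up to 4 called members per list and direction, a set list, and the 5 largest per direction in the other comparisons. Small RNA, ribosomal RNA, pseudogene, antisense and uncharacterised loci were left out of the largest changes. Some genes that this rule names are not reported here. The members and the 36 gene lists were chosen with earlier results of these data known. Lists are described by counts and medians beside all genes, with no set test. Promoters matched 9608 tested genes in RefSeq's table of GRCh38.p14, 8917 by symbol and 691 by an older symbol. Other software was Python 3.11.15 with pandas 2.3.3, numpy 2.4.6 and matplotlib 3.10.9.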

Additional observations from a re-analysis of the deposited data

Results flagged for a closer look

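For 21 named genes the response to 1000 nM differed between AMO1 and the libraries labelled XG1 by the interaction test (limma, adjusted over all 12204 genes), and they are listed for that reason. The values are the AMO1 log2 change minus that of the libraries labelled XG1. The AMO1 response was the higher for SAPCD1 (2.64), HIST2H2BE (2.26), GBGT1 (2.19), HEMGN (1.99), GADD45A (1.91), ATF3 (1.73) and ZNF580 (1.66). It was also the higher for SESN2 (1.56), BBC3 (1.54), GDF15 (1.53), HES6 (1.53), TNFRSF10D (1.53), TMEM129 (1.39) and TP53INP1 (1.29). It was the lower for CCDC107 (-2.88), ZBTB32 (-2.43), CIITA (-1.95), PPAPDC1B (-1.76), SPTBN1 (-1.70), DDN (-1.20) and TNFRSF8 (-1.17). ZBTB32, CIITA and TNFRSF10D were near the floor in both groups labelled XG1, as given above. SAPCD1, GBGT1 and HEMGN stood under 1 FPKM in all 6 AMO1 libraries and were lower at 1000 nM in the libraries labelled XG1. HEMGN averaged 2.77 ± 0.951 FPKM at 1000 nM, against 13.9 ± 3.49 FPKM in DMSO there. GBGT1 averaged 1.35 ± 0.336 FPKM at 1000 nM, against 10.4 ± 2.05 FPKM in DMSO there, and SAPCD1 averaged 0.130 ± 0.0568 FPKM at 1000 nM, against 5.43 ± 0.796 FPKM in DMSO. CCDC107 (-1.08, adjusted p = 0.0707) and PPAPDC1B (-0.36, adjusted p = 0.319) were not called in AMO1. Both were higher at 1000 nM in the libraries labelled XG1. The difference for SAPCD1 was lost without any 1 of 11 of the 12 libraries (adjusted p up to 0.111). It was lost without any 1 of 9 for CCDC107 (up to 0.0742), 9 for TNFRSF8 (up to 0.111), 6 for ATF3 (up to 0.0700) and 6 for ZNF580 (up to 0.0620). It was also lost without any 1 of 6 for TP53INP1 (up to 0.0960), 5 for DDN (up to 0.0835), 3 for GADD45A (up to 0.0608) and 3 for TMEM129 (up to 0.0680). For the other 12 it held without any single library.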

How the results depend on the processing

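Of 164 genes named in AMO1 at 1000 nM, 140 were called, 107 of them also after centring and 78 under every setting tried. Against the count of 2091, the other settings gave 1418 (centred without DMSO replicate 3, a setting added after seeing the data) to 2211 (pseudocount 5). Leaving out 1 library gave 1187 to 3031. Centring changed the split most, to 1012 higher and 815 lower. With only the 6 libraries compared, lower members were 1 of 15 G1 genes (4 in the main fit) and 3 of 23 cholesterol genes (9). They were 3 of 23 DNA repair genes (6) and 2 of 12 E2F and RB members (4), but 4 of 21 histone genes (2). Same-numbered deviations correlated at -0.0558, 0.0632 and -0.102, and differently numbered ones at -0.0796 to 0.125. With 3 libraries a group, this check cannot tell whether the replicate numbers pair the libraries. With the replicate number as a block, 1454 genes were called at 1000 nM against DMSO, 123 at 100 nM against DMSO, 4 between the doses and 38 for the difference of lines. For 100 nM against DMSO (268), the count was 477 after centring, 459 after quantile normalization, 137 with pseudocount 0.1 and 453 with pseudocount 5. It was 6 with only the libraries compared, and 100 to 942 leaving out 1 library. For 1000 nM against 100 nM (22), it was 13 with pseudocount 0.1, 37 with pseudocount 5, 13 with only the libraries compared, and 2 to 17 leaving out 1 library. For the difference of lines (83), it was 191 after centring, 216 after quantile normalization, 27 with pseudocount 0.1 and 201 with pseudocount 5. It was 54 with only the libraries compared, and 42 to 165 leaving out 1 library. The direction changed for genes not called before centring. After centring, log2 changes were 0.11 for ABCB1, 0.12 for BCL2L1, 0.21 for BCL2L11, 0.056 for E2F1, 0.21 for GBGT1, 0.035 for IKZF3, 0.22 for JCHAIN, 0.12 for MNAT1 and 0.12 for PMAIP1. Centred without DMSO replicate 3, they were 0.039 for ABCB1, 0.036 for BCL2L1, 0.21 for BCL2L11, 0.13 for CCNH, 0.26 for GBGT1, 0.029 for IKZF3, 0.19 for JCHAIN, 0.21 for MNAT1, 0.11 for PMAIP1 and 0.078 for PPAPDC1B. After quantile normalization, they were 0.064 for ABCB1, 0.16 for BCL2L11, 0.061 for E2F1, 0.039 for IKZF3, 0.11 for MNAT1 and 0.091 for PMAIP1. Leaving out 1 library, changes ranged over -0.34 to 0.0091 for ABCB1, -0.18 to 0.081 for BCL2L11, -0.15 to 0.025 for GBGT1, -0.037 to 0.047 for HEMGN, -0.19 to 0.0029 for JCHAIN and -0.041 to 0.092 for PRDM1. The cause of these changes was not tested. FPKM values carry no read depth, so no counting interval can be given. A gene under about 1 FPKM is near the floor of these libraries (0.0819 to 0.133 FPKM in the 6 AMO1 libraries compared).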

Other observations

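Some small nucleolar RNA genes held very wide apparent changes and are given as values only, chosen after they were seen. SNORD38A was listed at 4204, 2728 and 4391 FPKM in the 1000 nM libraries, against 0.113, 0.129 and 0.0916 FPKM in the DMSO libraries and 0.0909, 0.0792 and 0.107 FPKM at 100 nM (adjusted p = 0.0281 at 1000 nM, up to 0.0809 leaving out 1 library). In the libraries labelled XG1 it ranged from 0.0919 to 6239 FPKM in DMSO and from 0.0969 to 3290 FPKM at 1000 nM, so it also stood high without the drug. SNORD26 was listed at 3025, 1318 and 3162 FPKM at 1000 nM, against about the floor in all DMSO libraries, but also at 1809 FPKM in the third 100 nM library. Of 191 small nucleolar and small Cajal body RNA genes tested, 8 were called, a smaller share than the 17.1% of all genes. Such genes are very short, so a few reads make a large FPKM, and their libraries tended to be either at the floor or far above it. The short noncoding RNA gene SNAR-G1, whose mean was 17.2 on the log2(FPKM + 1) scale, was called lower with a log2 change of -1.03 (adjusted p = 0.0124), and its relative SNAR-E, at 17.8, was not called (log2 change 0.08, adjusted p = 0.950). These near-identical copies share reads, so their separate values are uncertain.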
